A study of Mus musculus with 2 samples.

Results

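The genes described here are 46 genes of the autophagy machinery and of the TFEB family of transcription factors, taken by symbol from a list sorted by known function. All 46 were among the 14197 genes of the table. The values came from 4T1 cells, a murine mammary carcinoma line with a wild-type genotype in the labels, and from bulk RNA of whole cultures. One culture received astragalin (AS), a plant flavonoid, at 20 μM for 24 h, and the other received the vehicle. With 1 library per condition there was no replicate check, so no p-value is given, and AS cannot be told apart from any other difference between the cultures. The AS library held 44816784 reads on genes, and the vehicle library 50711715. In bulk RNA, fewer cells of a type and less RNA per cell cannot be told apart.

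The label of the cells was checked against markers. All 7 epithelial markers were listed, with Krt18 at 707 RPKM with AS and 902 RPKM without it, and Epcam at 335 and 357 RPKM. RPKM scales the reads of a gene by its exon length and by the total of the library. Summed over the 7 markers, the level was 1809 RPKM with AS and 2312 RPKM with the vehicle, a gap that came mostly from Krt18 and Krt8 (372 and 540 RPKM), while Cdh1 (95.5 and 84.6 RPKM) and Cldn4 (45.8 and 34.2 RPKM) were higher with AS. Of markers of other cells, none of the 3 endothelial genes was listed. Ptprc, which marks leukocytes, stood at 0.116 and 0.114 RPKM, and the collagen gene Col1a1 at 0.896 and 0.711 RPKM. The leukocyte list was carried by Cd68, at 24.0 RPKM with AS and 28.1 in vehicle cells, and the fibroblast list by Pdgfra, at 4.24 and 4.16 RPKM. The part of these marker differences in the results below was not tested.

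Autophagy encloses cytoplasm in a double membrane, the autophagosome, and delivers it to the lysosome. A kinase complex around ULK1 starts the process, a class III PI3-kinase marks the membrane with a lipid, ubiquitin-like conjugation attaches ATG8 proteins to it, receptors bind the cargo, and tethers and SNARE proteins fuse it with the lysosome. TFEB, TFE3 and MITF are the transcription factors that raise lysosomal and autophagy genes when mTORC1 is inactive. Much of the control of autophagy acts on proteins, which RNA levels do not show.

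The question put to the data was whether these genes differed between AS-treated and vehicle-treated cells. Most of them differed little. The log2 fold change compares AS with vehicle once 0.1 RPKM has been added to each value. A log2 fold change of 1 is the fold threshold in the study's methods, where it is paired with a limit on the false discovery rate. That limit, and the p-value limit paired there with a 1.5-fold threshold, were not applied here. None of the 46 genes was above 1, against 0.662% of all genes, and none was below -1, against 0.31% of all genes. At a difference of 1.5-fold on the same scale, the other threshold named there, Epg5 was the single gene on the higher side, 2.17% of the members against 3.56% of all genes, and none was on the lower side, against 2.01% of all genes. These shares lie near the background.

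The whole set lay slightly on the higher side. Its median log2 fold change was 0.13, against 0.07 for all genes, and 34 of 46 genes (73.9%) had the higher value with AS, against 60.9% of all genes. After TMM scaling of the reads, which centres the bulk of genes near 0, 27 were higher and 19 lower. The spread was narrow, with 76.1% of the members within 0.25 of 0 on the log2 scale, against 66.2% of all genes, and a range from -0.32 for Bnip3l to 0.60 for Epg5. Reads of the members ran from 68 for Atg10 with AS to 20253 for Tax1bp1 with the vehicle. For each gene a 95% Clopper-Pearson interval was taken from its reads in both libraries with nothing added. Such intervals cover counting error only. They excluded 0 for 58.7% of the members and for 57.3% of all genes. Relative to the all-gene median of 0.07, 18 members (39.1%) had an interval wholly above and 9 (19.6%) wholly below, against 27.3% and 28.2% of all genes.

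**Figure D1:**
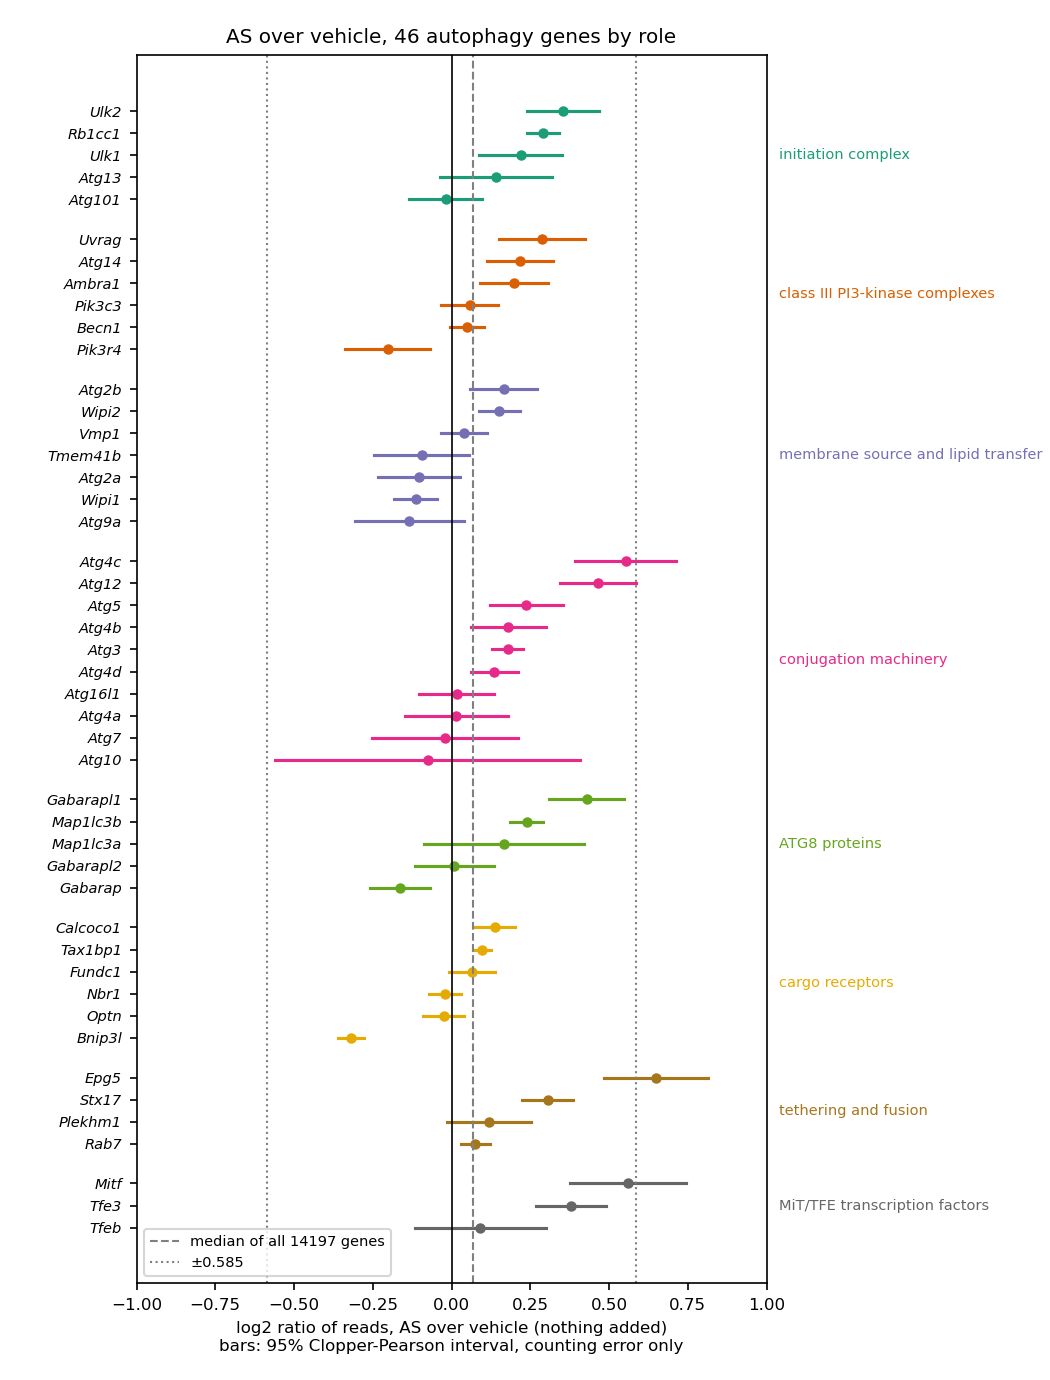
Log2 ratio of reads of each of the 46 genes, AS over vehicle with nothing added, grouped by role, with bars for the 95% Clopper-Pearson interval that covers counting error only. The dashed line is the median of all 14197 genes and the dotted lines mark a 1.5-fold difference either way; Epg5 alone lies past a dotted line, and Bnip3l is the lowest.

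The initiation complex was on the higher side. ULK1 and ULK2 are the kinases that start autophagy, Rb1cc1 encodes FIP200, the scaffold that holds them, and Atg13 and Atg101 encode its other subunits. Ulk2 had 5.08 RPKM with AS and 3.97 in vehicle cells, from 1363 and 1207 reads, giving a log2 fold change of 0.35 with an interval from 0.24 to 0.47. Rb1cc1 had 9.70 and 7.94 RPKM and a log2 fold change of 0.29, and Ulk1 had 3.33 and 2.86 RPKM and 0.21. The remaining subunits differed less, with 0.14 for Atg13 and -0.02 for Atg101, and both of their intervals span 0. So 4 of the 5 genes (80.0%) were higher with AS, against 60.9% of all genes. The same number was higher after TMM, median-of-ratios or upper-quartile scaling, which put the all-gene median near 0. With trends removed the values were smaller, at 0.22 for Ulk2, 0.12 for Rb1cc1 and 0.14 for Ulk1. Rb1cc1 shares exon bases with a gene on the other strand.

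The class III PI3-kinase genes were mixed. Pik3c3 encodes the lipid kinase VPS34, Pik3r4 its regulatory subunit VPS15 and Becn1 the scaffold Beclin 1, and these core genes had log2 fold changes of 0.06, -0.19 and 0.05. Pik3r4 had 1.81 RPKM with AS and 2.09 in vehicle cells, from 787 and 1025 reads, with an interval from -0.34 to -0.07, and was the second lowest member. The genes that direct the kinase to autophagosomes or endosomes stood higher. Uvrag had a log2 fold change of 0.27, Atg14 of 0.21 and Ambra1, a regulator of Beclin 1, of 0.19, and their 3 intervals lie above 0.07. With trends removed they were at 0.12, 0.13 and 0.10, and Pik3r4 at -0.34. Of the 6 genes 5 (83.3%) were higher with AS, against 60.9% of all genes. After each of the alternative scalings 3 were higher, and Becn1 and Pik3c3 were below 0.

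Genes that supply and extend the membrane had a median of -0.09, the one role group below 0 with the authors' scaling; the cargo receptors were below 0 as well under the other scalings and with trends removed. WIPI1 and WIPI2 bind the lipid made by VPS34, ATG2A and ATG2B move lipid into the growing membrane, and ATG9A, VMP1 and TMEM41B are scramblases that work with them. Wipi1 had 16.1 RPKM with AS and 17.4 in vehicle cells, from 3183 and 3898 reads, giving a log2 fold change of -0.11 with an interval from -0.18 to -0.05. Atg9a was at -0.13, Atg2a at -0.10 and Tmem41b at -0.09. Each of their intervals spans 0 but lies wholly below the all-gene median of 0.07. Their closest relatives lay on the other side, with Wipi2 at 0.15 and Atg2b at 0.16, but with trends in GC content, length and expression removed Atg2b was at -0.04, on the side of Atg2a at -0.19, and Wipi2 at 0.05. The summed level of each pair was near equal between the libraries, at 24.1 and 24.6 RPKM for both WIPI genes and 4.94 and 4.87 RPKM for both ATG2 genes. All 7 genes were within 0.25 of 0, Vmp1 among them with 0.04. With Wipi1, 4 of the 7 genes had an interval wholly below the all-gene median and 1 wholly above, against 28.2% and 27.3% of all genes. Vmp1 contains Mir21a on the same strand, and Atg9a overlaps genes on both strands.

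The conjugation machinery held some of the larger differences of the set. ATG7 activates ATG12 and the ATG8 proteins, ATG10 and ATG3 are the conjugating enzymes that receive them, the ATG12, ATG5 and ATG16L1 complex directs ATG8 to lipid, and ATG4 proteases process ATG8. Atg4c (chromosome 4, 99193934 to 99259787, plus strand of GRCm38) had 4.94 RPKM with AS and 3.37 in vehicle cells, from 744 and 574 reads. Its log2 fold change was 0.54, just short of 1.5-fold, with an interval from 0.39 to 0.71, and 95.5% of all genes were lower. Atg12 had 3.62 and 2.62 RPKM, from 1253 and 1028 reads, giving a log2 fold change of 0.45 with an interval from 0.34 to 0.58. Both values lie in the upper tail of the members but within the range that all genes cover. Atg5 was at 0.24, Atg3 at 0.18, Atg4b at 0.17 and Atg4d at 0.13. With trends removed Atg4c was at 0.41, Atg12 at 0.30, Atg5 at 0.15, Atg4b at 0.03, Atg4d at 0.07 and Atg16l1 at -0.15. Atg16l1 and Atg4a had log2 fold changes of 0.02 and 0.01, Atg7 of -0.02 and Atg10 of -0.07. Atg10 was the least abundant member, with 0.881 RPKM from 68 reads with AS and 0.928 RPKM from 81 reads with the vehicle, and its interval from -0.56 to 0.41 leaves a difference of either sign undetectable at this depth. Atg7 was next, at 0.927 and 0.940 RPKM from 290 and 333 reads, with an interval from -0.25 to 0.21. Of the 10 genes 8 (80.0%) were higher with AS, against 60.9% of all genes. After each alternative scaling 6 were higher, with Atg4a and Atg16l1 turning to below 0.

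Among the ATG4 proteases, Atg4d had the largest share of the summed RPKM in both libraries, 41.2% with AS and 43.1% with the vehicle. The share of Atg4c was 23.6% and 18.5%, so it passed Atg4a, which had 20.5% and 23.4%. Atg4b had 14.8% and 15.0%. This order depends on the length used: per longest coding transcript the mean level was 10.1 for Atg4d, 5.78 for Atg4b, 5.17 for Atg4a and 4.38 for Atg4c.

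Promoter sequences were examined for the motif that TFEB, TFE3 and MITF bind, since these factors are among the 46 genes. RefSeq promoters on GRCm38.p6, from 250 bases before to 50 after the start site, were found for 38 of the 46 genes, 50 promoters in all, and not for Rb1cc1, Becn1, Pik3c3, Atg12, Atg16l1, Map1lc3a, Epg5 and Bnip3l. The E-box CACGTG was present in 4 of the 50 (8.0%), against 7.15% of all 32851 promoters and 9.77% of the 12391 promoters of genes in the table. The longer TCACGTGA, the core of the lysosomal CLEAR element, which contains CACGTG, was present in 1 of 50 (2.0%), against 0.97% and 1.9% of these backgrounds. TGATGNAA, a form of the element that ATF4 with a C/EBP factor binds, was in 0 of 50, against 3.97% and 2.12%. Both strands were searched. The stretches are printed 5′ to 3′ on the strand of the gene with these motifs in capitals, from chr16:45158695-45158804 (plus) for Atg3, chr10:44268285-44268370 (plus) for Atg5, chr6:114670924-114671009 (plus) for Atg7 and chr14:47568390-47568475 (minus) for Atg14. The RefSeq starts of Atg7 and Atg14 used here lie inside the GENCODE genes, whose outermost starts are at 114643097 and 47570649. Which start the cells used was not tested.
Atg3: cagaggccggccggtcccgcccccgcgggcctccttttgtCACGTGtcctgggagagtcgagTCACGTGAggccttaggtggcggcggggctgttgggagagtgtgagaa
Atg5: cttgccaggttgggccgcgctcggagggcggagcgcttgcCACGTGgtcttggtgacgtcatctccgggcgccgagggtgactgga
Atg7: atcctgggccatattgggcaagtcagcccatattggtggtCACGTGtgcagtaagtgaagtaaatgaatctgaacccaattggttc
Atg14: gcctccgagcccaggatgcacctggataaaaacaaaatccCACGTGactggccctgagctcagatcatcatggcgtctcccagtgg

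Atg3, with a CACGTG at position -94 and a TCACGTGA at -72 from its start site, had 46.1 RPKM with AS and 40.7 in vehicle cells, from 6528 reads in each library. Its log2 fold change of 0.18, with an interval from 0.13 to 0.23, and those of 0.24 for Atg5, -0.02 for Atg7 and 0.21 for Atg14 lie inside the range of the members that had no match. A match in these letters is a description of the sequence and not a binding site.

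The ATG8 genes differed from each other. Their products sit on the autophagosome and bind receptors, LC3 proteins on one branch and GABARAP proteins on the other. Gabarapl1 (chromosome 6, 129533160 to 129542346, plus strand of GRCm38) had 14.0 RPKM with AS and 10.4 in vehicle cells, from 1268 and 1066 reads. Its log2 fold change was 0.43 with an interval from 0.31 to 0.55. Gabarap (chromosome 11, 69991143 to 69994951) had 19.6 and 22.0 RPKM, from 1624 and 2059 reads, and a log2 fold change of -0.16 with an interval from -0.26 to -0.07. The intervals of these paralogs do not overlap, in counting error alone. Map1lc3b, the LC3 gene most used as a marker of autophagy, had 17.6 and 14.9 RPKM, from 5933 and 5689 reads, giving a log2 fold change of 0.24 with an interval from 0.19 to 0.29. Map1lc3a had 4.90 and 4.37 RPKM, from 260 and 262 reads, and its value of 0.16 has an interval from -0.09 to 0.42 that spans 0. Gabarapl2 had 9.54 and 9.48 RPKM, from 996 and 1120 reads, giving a log2 fold change of 0.01 with an interval from -0.12 to 0.13, which turned to below 0 under each alternative scaling. Summed over all 5 genes the level was 65.7 RPKM with AS and 61.1 in vehicle cells. The share of Gabarap in that sum was 29.9% with AS and 35.9% with the vehicle, that of Gabarapl1 21.4% and 17.0%, and that of Map1lc3b 26.8% and 24.4%. This order depends on the length used, since per longest coding transcript the mean level was 46.3 for Map1lc3b and 28.4 for Gabarap. Map1lc3b and Gabarapl1 share exon bases with a gene on the other strand. The ATG8 genes are near relatives, and how the authors counted reads that map to more than 1 place is not stated, so their split is uncertain.

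**Figure D2:**
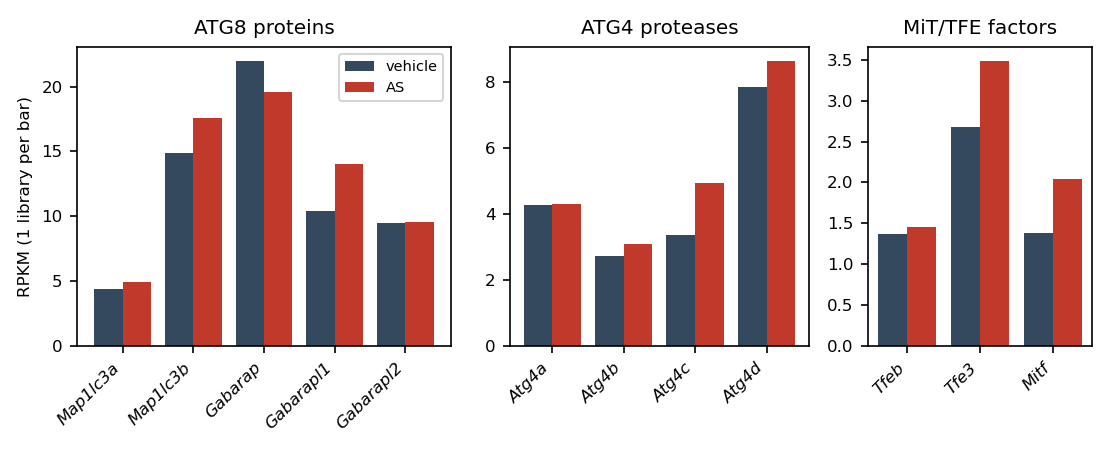
RPKM of the ATG8, ATG4 and MiT/TFE genes in the vehicle library and the AS library, 1 library per bar and so no error bars, each panel with an axis of its own that starts at 0. Gabarap is the one ATG8 gene with the lower bar in the AS library (19.6 against 22.0 RPKM), and Gabarapl1, Atg4c and Tfe3 have the widest gap upward in their panels.

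The cargo receptors among the members had a median close to 0 with the authors' scaling. NBR1, optineurin (Optn), TAX1BP1 and CALCOCO1 link cargo to ATG8 proteins, and BNIP3L and FUNDC1 do so from the mitochondrial surface. Bnip3l, also called Nix and known as a HIF-1 target, was the lowest of all members. It lies on chromosome 14 from 66985239 to 67008877 on the minus strand and had 47.8 RPKM with AS and 59.7 in vehicle cells, from 8288 and 11706 reads. Its log2 fold change was -0.32 with an interval from -0.36 to -0.28, and 7.76% of all genes were lower. The other receptor of mitochondria, Fundc1, had 27.5 and 26.3 RPKM and a log2 fold change of 0.06. Tax1bp1, with 42.6 and 39.9 RPKM from 19121 and 20253 reads, had a log2 fold change of 0.10 with an interval from 0.07 to 0.12. Calcoco1 was at 0.14, Nbr1 at -0.02 and Optn at -0.03. The intervals of Nbr1 and Optn span 0 but lie wholly below the all-gene median of 0.07, as does that of Bnip3l. So 3 of the 6 intervals lay wholly below that median and 1 (Calcoco1) above, against 28.2% and 27.3% of all genes. Of the 6 genes 3 were higher with AS, with a median of 0.02, and 2 after TMM, median-of-ratios or upper-quartile scaling, where the median was -0.05, -0.05 and -0.06.

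The 4 genes of tethering and fusion were all higher with AS, against 60.9% of all genes, though Rab7 turned to below 0 with upper-quartile scaling. EPG5 tethers autophagosomes to late endosomes and lysosomes, STX17 is the SNARE of the autophagosome, PLEKHM1 is an adaptor, and RAB7 is the small GTPase of late endosomes that recruits the tethers. Epg5 (chromosome 18, 77938465 to 78035013, plus strand of GRCm38) had 1.63 RPKM with AS and 1.04 in vehicle cells, from 733 and 529 reads, a fold of 1.57. Its log2 fold change was 0.60, and 0.65 with nothing added, where its interval runs from 0.49 to 0.81. That made it the highest of the 46, at rank 465 of all genes, with 96.7% of them lower. With 1 RPKM added Atg4c was the highest instead, at 0.44. Epg5 had a level close to 1 RPKM. Its place past 1.5-fold was lost with 1 RPKM added, after TMM, median-of-ratios or upper-quartile scaling, and with trends removed. Stx17 had 9.92 and 8.03 RPKM, from 2645 and 2423 reads, giving a log2 fold change of 0.30 with an interval from 0.22 to 0.39. With trends removed Stx17 was at 0.20. Plekhm1 was at 0.12 with an interval that spans 0. Rab7, the most abundant member by RPKM, had 66.3 and 62.9 RPKM, from 7777 and 8349 reads. Its log2 fold change was 0.08, with an interval from 0.03 to 0.12 that spans the all-gene median of 0.07. Of the 4 genes 2, Epg5 and Stx17, had an interval wholly above that median. Per longest coding transcript Tax1bp1 stood above Rab7 in mean level (125 and 78.2).

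The 3 MiT/TFE factors were of low to middling level. With the authors' scaling 3 of 3 were higher with AS, against 60.9% of all genes. The same held under each other scaling, with Tfeb turning to below 0 when trends were removed. Mitf (chromosome 6, 97807052 to 98021349, plus strand of GRCm38) had 2.04 RPKM with AS and 1.38 in vehicle cells, from 568 and 436 reads, giving a log2 fold change of 0.53 with an interval from 0.38 to 0.74. Tfe3 (chromosome X, 7762560 to 7775202) had 3.48 and 2.68 RPKM, from 1449 and 1261 reads, and a log2 fold change of 0.37 with an interval from 0.27 to 0.49. With trends removed Mitf was at 0.38 and Tfe3 at 0.24, and with 1 RPKM added they were at 0.35 and 0.29. Tfeb (chromosome 17, 47737030 to 47792419) had 1.45 and 1.36 RPKM, from 370 and 393 reads, giving a log2 fold change of 0.09 with an interval from -0.12 to 0.30. Mitf and Tfe3 thus lay above the all-gene median beyond counting error, and for Tfeb no difference was detectable at this depth. Their summed level was 6.98 RPKM with AS and 5.43 in vehicle cells, and Tfe3 made up 49.9% and 49.4% of it.

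**Figure D3:**
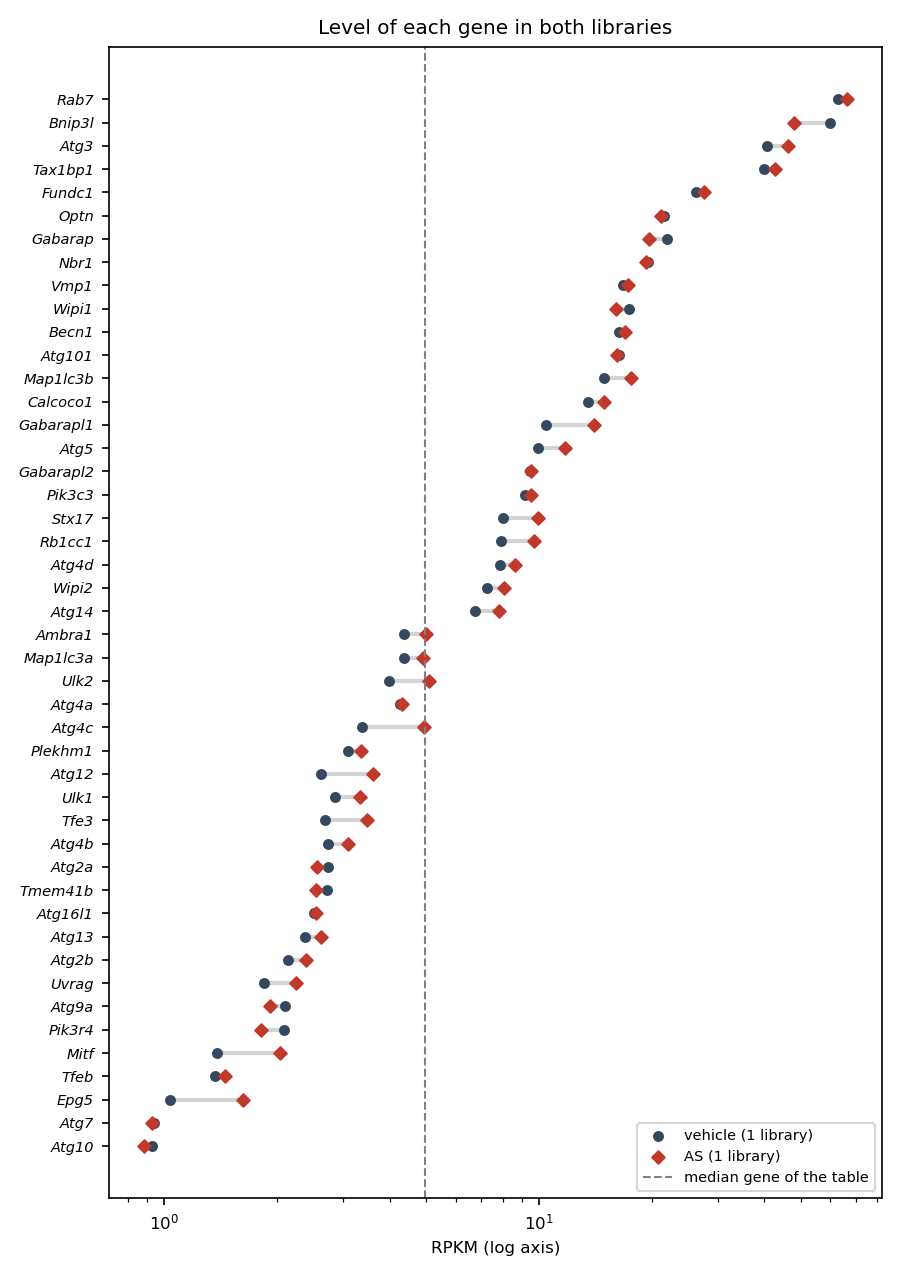
RPKM of the 46 genes in the vehicle library (circles) and the AS library (diamonds) on a log axis, ordered by the mean of both. Levels run from under 1 RPKM for Atg10 and Atg7 to over 60 RPKM for Rab7, and the grey bars between the libraries are short beside that range.

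Per length, the members spanned a wide range of levels. The mean RPKM was highest for Rab7 (64.6), Bnip3l (53.8) and Atg3 (43.4) and lowest for Atg10 (0.905), Atg7 (0.934) and Epg5 (1.33). The median member had 5.98 RPKM, against 4.95 for the median gene of the table, and 44 of the 46 had a mean of at least 1 RPKM. Summed over all members the level was 545 RPKM with AS and 523 in vehicle cells. The joined exons of the members had a median length of 5904 bases, against 3996 for all genes, and the median GC content of their longest transcripts was 50.2%, against 49.7%. Once trends with GC content, exon length and expression had been removed from the fold changes, the median of the members was 0.04 where that of all genes is 0.

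Other genes of the pathway were taken from lists of textbook roles. Of 20 further autophagy receptors 19 were listed, with a median of 0.08, and some of them differed by more than the receptors among the members. The median was 0.01 after TMM scaling and -0.03 with trends removed. Sqstm1 encodes p62, the best known receptor of ubiquitinated cargo and a known target of NRF2, ATF4 and TFEB. It had 260 RPKM with AS and 144 in vehicle cells, from 39253 and 24555 reads, giving a log2 fold change of 0.85 with an interval from 0.83 to 0.88. Stbd1, a glycogen-binding receptor, had 52.8 and 21.4 RPKM, from 5264 and 2412 reads, and was above 1, with a log2 fold change of 1.30 and an interval from 1.23 to 1.37. Bnip3, the relative of Bnip3l and likewise a known HIF-1 target, had 32.5 and 59.5 RPKM, from 3301 and 6849 reads, giving a log2 fold change of -0.87 with an interval from -0.93 to -0.81. Bnip3 and Bnip3l were thus both lower with AS, Bnip3 by more. Of the other 16 listed receptors none passed 1.5-fold in either direction. Of all 19 listed, 2 passed it on the higher side and 1 on the lower, against 3.56% and 2.01% of all genes.

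The list of 12 autophagy genes known as targets of ATF4 or CHOP, which shares 11 genes with the members, had a median of 0.03. Sqstm1 alone, 1 of the 12, was more than 1.5-fold higher, against 3.56% of all genes. Of the genes that the list shares with the members, Atg12 had 0.45, Map1lc3b 0.24 and Atg5 0.24, while Atg7, Nbr1, Atg10 and Gabarap were below 0. The median was -0.03 after TMM scaling and -0.05 with trends removed, and 0.11 among genes with a mean RPKM of at least 1, which leaves out Atg7 and Atg10.

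The targets of TFEB were described by a list of 37 lysosomal and autophagy genes, of which 33 were listed. Their median log2 fold change was 0.11, and 28 of 33 (84.8%) were higher with AS, against 60.9% of all genes, while 23 (69.7%) lay above the all-gene median. The median of the list was 0.04 after TMM scaling, 0.03 after upper-quartile scaling and 0.10 with trends removed. Without the 3 members the list shares (Uvrag, Wipi1 and Map1lc3b), the median with the authors' scaling was 0.10 over 30 genes. Sqstm1 was the one gene of the 33 past 1.5-fold, on the higher side, where 3.56% of all genes lay. Chosen after their values were seen, the lysosomal protease gene Ctsd had 39.1 RPKM with AS and 34.2 in vehicle cells, giving a log2 fold change of 0.19, the membrane protein gene Lamp1 had 113 and 107 RPKM and 0.08, and the calcium channel gene Mcoln1 had 6.98 and 6.82 RPKM and 0.03. Flcn, Fnip1 and Fnip2, the folliculin complex that links amino acids to TFEB and also known as its targets, were also chosen after their values were seen and had 0.37, 0.40 and 0.44.

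Upstream of the machinery, 35 of 38 genes of mTORC1 and AMPK control were listed, with a median of 0.10. That median was 0.03 after TMM scaling, 0.02 after upper-quartile scaling and 0.001 with trends removed. Trib3, a pseudokinase that binds AKT and a known ATF4 target, was above 1, with 27.9 RPKM with AS and 6.43 in vehicle cells, from 2665 and 694 reads, and a log2 fold change of 2.10 with an interval from 2.00 to 2.24. Sesn2, a leucine sensor that restrains mTORC1 and a known ATF4 target, had 2.68 and 1.55 RPKM, from 418 and 274 reads, giving a log2 fold change of 0.75 with an interval from 0.56 to 1.01. Of the 35 genes 2 were thus past 1.5-fold on the higher side and 1 above 1, against 3.56% and 0.662% of all genes. None of these genes was 1.5-fold lower, against 2.01% of all genes. The 18 listed genes of fusion SNAREs and the HOPS tether had a median of 0.07, which was between -0.01 and 0 under the other scalings and with trends removed, and none past 1.5-fold. The 16 listed core and accessory autophagy genes had a median of 0.16 and none past 1.5-fold. Their median was 0.09 after TMM scaling, and 0.08 after upper-quartile scaling and with trends removed.

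**Figure D4:**
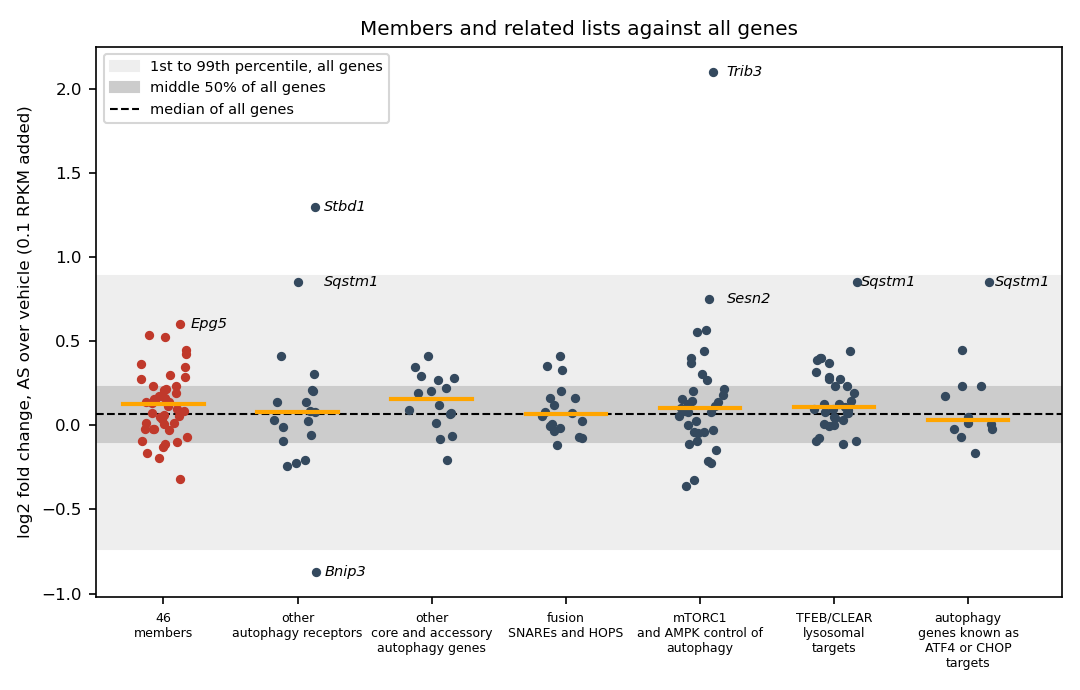
Log2 fold change of AS over vehicle with 0.1 RPKM added, for the 46 members (red) and for each listed gene of 6 related lists (dark blue), 1 point per gene with an orange bar at the median and the names of genes past 1.5-fold. The shaded bands are the middle 50% and the 1st to 99th percentile of all genes; Stbd1, Bnip3 and Trib3 lie outside the wider band, and the 46 members lie inside it.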

How the data were processed

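RNA was extracted from 4T1 cells with TRIzol and made into libraries with a stranded mRNA kit. The submitters' processing notes name fastp 0.23.4, STAR 2.5.3a and featureCounts, with the build GRCh38. That is a human build, whereas the symbols are those of mouse genes. The authors deposited 1 table with the RPKM of each library and the log2 of the mean CPM. It also holds 3 columns of the authors' own comparison (log2 fold change, p-value and FDR), which were not used. No header of the deposited table names RPKM as the unit, which was found from the values.

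RPKM times the joined exon length in GENCODE M21 (GRCm38) times 1 constant per library was within 0.01 of a whole number in both libraries for 94.2% of 13502 genes with a single entry, which gave their reads. Reads of 1479 genes were taken from the ratio of both values and the mean CPM, and those of 3 were estimated. Of the members, 45 came from length and Atg4a from the ratio. The lowest mean of any listed gene was 29.5 reads, and the filter behind this is not stated. The constants, 44909683 and 50820728, serve as library sizes. The recovery was tested on simulated data.

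Fold changes used 0.1 RPKM added and the authors' scaling, which understates changes of low genes. Intervals are 95% Clopper-Pearson, from reads without molecular identifiers. Motifs were searched in RefSeq promoters. Alternatives were 0 or 1 RPKM added, scaling by TMM, by the median of ratios or by the upper quartile, and a mean RPKM of at least 1. Removal of trends (20 bins, 3 rounds), a restriction to genes without exon overlap and levels per longest coding transcript were chosen after seeing the data. The members and the related lists were chosen with earlier results of these data known. Full values were set for members beyond 1.5-fold, the 3 highest and lowest by fold change and by level, the MiT/TFE and ATG8 genes, and for related genes beyond a log2 fold change of 1 or beyond 1.5-fold. Python 3.11.15 was used.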

Additional observations from a re-analysis of the deposited data

How the results depend on the processing

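No member passed a log2 fold change of 1 under any alternative run. The single member past 1.5-fold, Epg5, was past it with 0 RPKM added, with a mean RPKM of at least 1 and among genes without exon overlap. The count was 0 with 1 RPKM added, with TMM, median-of-ratios or upper-quartile scaling, and with trends removed, and the cause was not tested for the trends. The scalings shift the log2 ratio of AS to vehicle by 0.07 (TMM, median of ratios) or 0.08 (upper quartile), slightly less for low genes because of the 0.1 RPKM added. The median of the members was between 0.04 (trends removed) and 0.14 (mean RPKM of at least 1), and above that of all genes in each setting for which both were computed. TMM and median-of-ratios scaling turned 7 members to below 0, all within 0.07 of 0 before, and upper-quartile scaling turned those and Rab7. Removing trends changed the sign of 9 members and made Pik3r4 the lowest in place of Bnip3l, and among the larger values it lowered Epg5 to 0.46, Atg4c to 0.41, Mitf to 0.38, Atg12 to 0.30, Tfe3 to 0.24 and Stx17 to 0.20. In the list of mTORC1 and AMPK control, 1 gene was past 1.5-fold with 1 RPKM added and 3 with 0 RPKM added, in place of 2. Exon overlap touches 14 members, and the 32 others had a median of 0.11. No paired analysis was possible because each condition has 1 library. Depth limits Atg10, Map1lc3a, Atg7 and Tfeb most, and the spread between cultures is unknown for every gene.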

Other observations

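The order of the levels depends on which length stands behind them, an alternative chosen after seeing the data. The deposited RPKM divides by all exons of a gene joined, and for several members these are far longer than the longest coding transcript. For Tax1bp1 the lengths are 9991 and 3285 bases, and its mean level is 41.3 RPKM by the first and 125 by the second, which takes it from rank 4 to rank 1 among the 46 genes. Map1lc3b goes from 16.2 to 46.3 and from rank 13 to rank 5, so that it stands above Gabarap (20.8 and 28.4) and not below it. Atg16l1 goes from 2.53 to 7.78 and from rank 36 to rank 25. Atg10, Epg5 and Atg7 are the lowest 3 by either length. The ratio of both libraries with nothing added does not depend on the length.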
